A study of Mus musculus with 10 samples.

Results

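The genes of interferon-γ (*Ifng*), interleukin-2 (*Il2*), interleukin-10 (*Il10*), interleukin-21 (*Il21*), interleukin-17A (*Il17a*), interleukin-17F (*Il17f*) and interleukin-22 (*Il22*) were followed on 10 mouse expression arrays. These 7 genes were listed by name, and the probe sets that the platform annotation gives to them were read from a table of 45037 probe sets for transcripts. Of the 7 genes, 5 had a probe set of their own, 6 probe sets in all: 1 each for *Ifng*, *Il2*, *Il10* and *Il17a*, and 2 for *Il21*. The annotation named no probe set for *Il17f*, which was not analysed here. *Il22* was named only on a probe set that it shares with its near-identical copy *Iltifb*. Each of the 5 genes was 1 of 18193 genes in the fit.

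T cells were taken from the spleen of wild-type C57BL/6 mice and sorted. The question of the study was how T cells that respond to B cells carrying the Epstein-Barr virus (EBV) proteins LMP1 and LMP2A compare between the CD4+ and CD8+ subsets. CD4+ TEM cells and CD8+ TEM cells, labelled as induced EBV-specific effectors, and CD4+ memory cells, labelled as induced EBV-specific memory, were grown from naïve cells for 25 days in the presence of lymphoma B cells that carry LMP1 and LMP2A and had been γ-irradiated, and of recombinant IL-2. The references were naïve CD4+ and naïve CD8+ T cells, which had no such culture. There was no group of CD8+ memory cells, and no cultured group without lymphoma cells or without IL-2, so culture, IL-2 and the response to lymphoma cells cannot be told apart. Each group had 2 arrays. The labels do not say whether 2 arrays of a group came from separate mice or cultures. P-values thus measure the spread between these arrays, which may be technical except in naïve CD8+ cells, whose arrays are compared below.

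Interferon-γ is the type II interferon, made by Th1 cells, cytotoxic T cells and NK cells. It acts through IFNGR1 and IFNGR2 and induces IRF1, the CXCR3 chemokines, guanylate-binding proteins and antigen-processing genes. IL-2 and IL-21 both signal through receptors that contain the common γ chain: IL-2 drives the growth of activated T cells, and IL-21 is made mainly by follicular helper, Th17 and other activated CD4+ cells and acts on B cells and cytotoxic lymphocytes. IL-10 restrains inflammatory responses. IL-17A and IL-17F are the defining cytokines of Th17 cells, and IL-22, of the IL-10 family, is made by Th17, Th22 and innate lymphoid cells and acts on epithelia.

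The sequences just upstream of the transcription start are shown for the 3 genes that rose in TEM cells and for *Il17a*, which stayed low. They are from RefSeq, build GRCm38.p6, 250 bases each, read 5′ to 3′ on the strand of the gene. The windows lie at chr10:118440796-118441045 on the plus strand for *Ifng*, chr3:37125955-37126204 on the minus strand for *Il2*, chr3:37232637-37232886 on the minus strand for *Il21* and chr1:20730655-20730904 on the plus strand for *Il17a*. Capitals mark matches, on either strand, to the letters of 7 motifs: GGAAA (the core bound by NFAT), TGANTCA (AP-1), TCACAC (a T-box core), AGGTCA (a half-site of ROR factors), TTCNNNGAA (STAT), GCGTG (the AHR core) and TATAAA (the TATA box).
Ifng: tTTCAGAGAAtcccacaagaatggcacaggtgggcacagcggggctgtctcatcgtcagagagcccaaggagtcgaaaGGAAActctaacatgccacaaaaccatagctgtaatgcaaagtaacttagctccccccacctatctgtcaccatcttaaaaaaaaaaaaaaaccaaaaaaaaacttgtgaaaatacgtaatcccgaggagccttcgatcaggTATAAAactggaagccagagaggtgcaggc
Il2: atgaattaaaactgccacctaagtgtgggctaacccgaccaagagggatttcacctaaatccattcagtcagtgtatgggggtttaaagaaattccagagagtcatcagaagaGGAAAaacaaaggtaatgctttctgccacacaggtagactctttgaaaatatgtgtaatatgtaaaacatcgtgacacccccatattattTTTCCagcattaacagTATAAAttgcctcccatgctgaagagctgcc
Il21: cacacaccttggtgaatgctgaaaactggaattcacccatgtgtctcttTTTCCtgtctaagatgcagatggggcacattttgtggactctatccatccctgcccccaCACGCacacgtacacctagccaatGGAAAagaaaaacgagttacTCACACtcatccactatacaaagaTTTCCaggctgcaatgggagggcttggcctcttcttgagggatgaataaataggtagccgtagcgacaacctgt
Il17a: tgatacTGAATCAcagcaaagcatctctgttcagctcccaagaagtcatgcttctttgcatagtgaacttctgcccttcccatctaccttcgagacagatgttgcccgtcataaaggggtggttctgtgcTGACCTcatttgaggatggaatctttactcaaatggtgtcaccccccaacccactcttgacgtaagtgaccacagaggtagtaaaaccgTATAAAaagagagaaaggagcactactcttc

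*Ifng* had 1 match to the NFAT core, 172 bases before the start, 1 to the STAT letters, 249 bases before it, and a TATA box 30 bases before it. *Il2* had 2 matches to the NFAT core and a TATA box 31 bases before the start. *Il21* had 3 matches to the NFAT core, 1 to the T-box core 98 bases before the start and 1 to the AHR core, and its window held no TATAAA. *Il17a* had no match to the NFAT core, and had 1 AP-1 match and 1 ROR half-site, 120 bases before the start. Of 32851 RefSeq windows of this length, 55.6% held the NFAT core, 6.75% the AP-1 letters, 12.3% the T-box core, 14.0% the ROR half-site, 7.02% the STAT letters, 28.2% the AHR core and 12.4% the TATA box. Such matches are a description of these letters, not of binding. *Il2* and *Il21* are adjacent genes on chromosome 3, *Il22* and *Iltifb* lie next to *Ifng* on chromosome 10, and *Il10* lies beside *Il19*, *Il20* and *Il24* on chromosome 1.

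The deposited values are log2 signals normalised by RMA, with array medians between 4.65 and 4.75. A level is given on that log2 scale, where 1 unit is a factor of 2 and where a dim probe set gives compressed differences, and levels of different probe sets cannot be set against each other. A gene was called when its adjusted p was under 0.05 (limma on all 10 arrays, Benjamini-Hochberg over 18193 genes). The subset markers fit the labels: *Cd4* read 11.50 to 11.89 on the 6 CD4+ arrays, and *Cd8b1* read 10.98 to 11.54 on the 4 CD8+ arrays, against 4.94 to 5.63 on the CD4+ arrays. *Cd8a* read 7.67 and 8.17 in CD4+ TEM cells, against 5.16 and 4.99 in naïve CD4+ cells, and *Cd4* read 6.51 and 6.89 in CD8+ TEM cells, against 4.30 and 4.10 in naïve CD8+ cells. B cell genes also read higher in the cultured cells. Over 9 B cell genes the mean level was 5.96 to 6.97 on the cultured arrays, against 3.76 and 3.82 in naïve CD4+ cells and 4.23 and 5.65 in naïve CD8+ cells. Of these 9 genes, 4 were called higher in CD4+ TEM cells, 4 in CD8+ TEM cells and 6 in CD4+ memory cells. *Ebf1*, a B cell transcription factor, read 10.19 to 10.82 on every cultured array, against 2.93 to 5.56 on the naïve arrays, and the B cell surface gene *Ms4a1* read 3.21 to 4.41 on the TEM arrays, 5.88 and 6.78 in CD4+ memory cells, and 7.02 on naïve CD8+ replicate 2. Over 8 myeloid genes the mean level was 4.64 to 5.08 on the cultured arrays, against 3.77 and 3.78 in naïve CD4+ cells and 4.06 and 5.17 in naïve CD8+ cells. Of these 8, 3 were called higher in CD4+ TEM cells (*Adgre1*, *Mpeg1* and *Cd68*), 2 in CD8+ TEM cells and 3 in CD4+ memory cells, while *Csf1r* read 3.98 to 4.94 and *Itgam* 2.73 to 3.20 on all arrays. Of all genes, 16.4% were called higher in CD4+ TEM, 20.9% in CD8+ TEM and 13.5% in CD4+ memory cells. The myeloid count in CD8+ TEM cells is near that share. *Lyz2* read 4.18 to 4.54 on the cultured arrays and, in naïve CD8+ cells, 5.20 on replicate 1 and 8.70 on replicate 2. The difference between the 3′ and 5′ probe sets of the *Gapdh* control, a sign of RNA length and labelling, was 0.91 to 1.72 log2 units on the cultured arrays, against 2.42 to 2.75 on the naïve arrays. The part of these B cell and myeloid genes and of RNA quality in the results was not tested, and in sorted bulk samples fewer expressing cells and less RNA per cell cannot be told apart.

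The naïve CD8+ arrays differed from each other. *Xist*, the RNA of the inactive X chromosome, read 3.97 on replicate 2, against 11.94 to 13.02 on the other 9 arrays. The naïve CD8+ arrays are thus not technical repeats of the same sample. The 12 immediate early and activation genes averaged 11.25 on replicate 1 and 8.0 on replicate 2, with *Fos* at 13.06 and 7.09 and *Nr4a1*, a gene induced by T cell receptor signals, at 10.30 and 5.0. Because all groups share an estimate of the spread, results for *Ifng* below are also given without these arrays.

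*Ifng*, *Il21* and *Il2* rose in TEM cells of both subsets, and *Il10* and *Il17a* were called in none of the comparisons. In CD4+ TEM cells 3 of the 5 measured genes were called higher than in naïve CD4+ cells and 0 lower, where 16.4% of all genes were called higher. In CD8+ TEM cells 3 of 5 were called higher than in naïve CD8+ cells, where the share of all genes was 20.9%. In CD4+ memory cells 0 of 5 were called in either direction, where 13.5% of all genes were called higher and 9.78% lower than in naïve CD4+ cells (limma), and 0 had an unadjusted p under 0.05. The median log2 difference of the 5 genes was 1.11 in CD4+ TEM cells, 1.90 in CD8+ TEM cells and 0.17 in CD4+ memory cells, beside medians of 0.02, 0.06 and 0.08 over all genes.

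**Figure D1:**
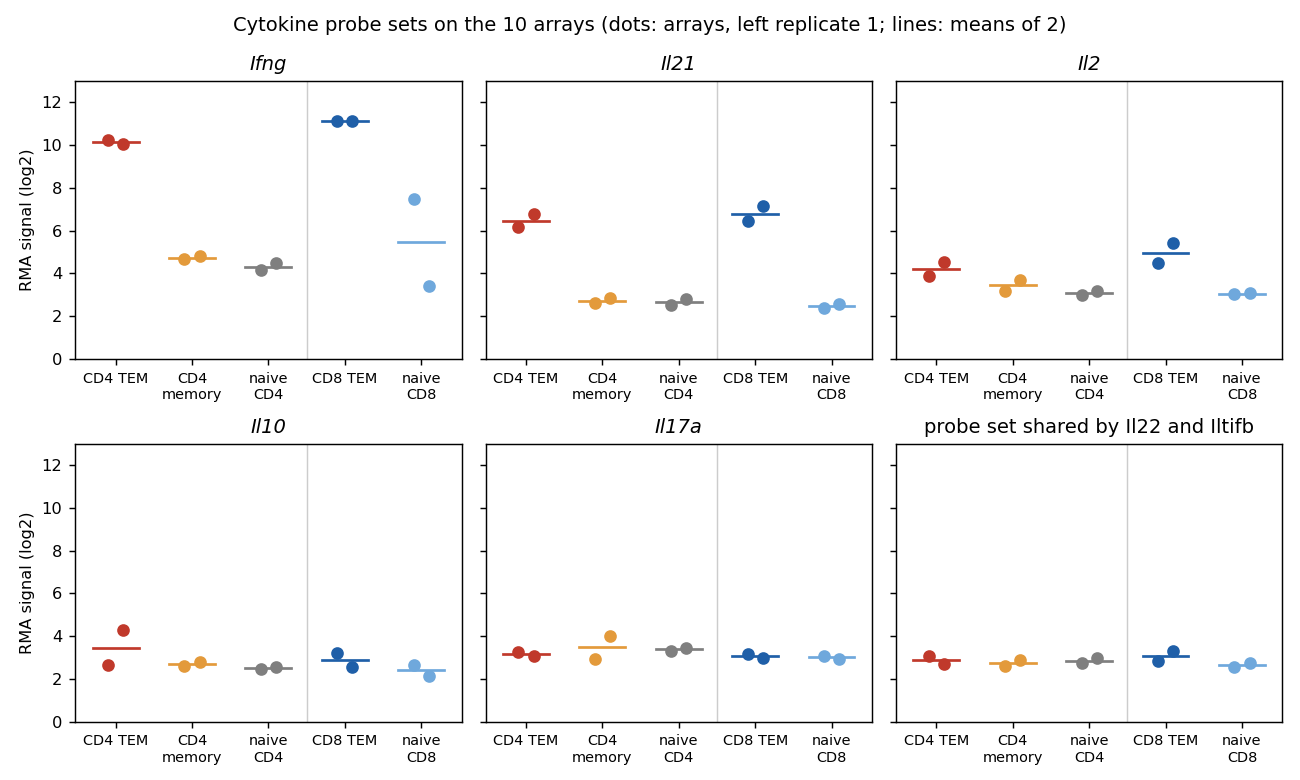
RMA signal (log2, vertical axis) of the probe sets of *Ifng*, *Il21*, *Il2*, *Il10* and *Il17a* and of the probe set shared by *Il22* and *Iltifb*, by cell group, with a dot for each of the 2 arrays of a group and a line at their mean. *Ifng* and *Il21* are high on all 4 TEM arrays and low in memory and naïve cells, apart from naïve CD8+ replicate 1, where *Ifng* reads 7.50.

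*Ifng* (probe set 1425947_at) read 10.22 and 10.06 in CD4+ TEM cells, 4.67 and 4.80 in CD4+ memory cells, and 4.14 and 4.49 in naïve CD4+ cells. In the CD8+ subset it read 11.12 and 11.12 in TEM cells, against 7.50 and 3.40 in naïve cells. All 4 TEM arrays lay above every other array, and in the naïve CD8+ pair replicate 1 lay 4.10 above replicate 2. That gap ranked 18th of the gaps of all 18193 genes between these arrays.

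*Ifng* was higher by 5.83 (SE 1.04, 95% interval 3.42 to 8.23, adjusted p = 0.00407, limma) in CD4+ TEM cells than in naïve CD4+ cells. In CD8+ TEM cells it was higher by 5.67 than in naïve CD8+ cells (SE 1.04, adjusted p = 0.00287, limma). Against naïve CD8+ replicate 2 alone the difference was 7.72, and against replicate 1 alone 3.62, both called. The rises were thus called with either naïve CD8+ array left out, but the size in CD8+ cells moved with that choice.

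CD4+ memory cells, grown for the same 25 days with the same stimulus, did not carry this rise. Their *Ifng* level exceeded that of naïve CD4+ cells by 0.42 (95% interval -1.98 to 2.82, adjusted p = 0.827, limma), and the arrays of the 2 groups did not overlap. Without both naïve CD8+ arrays this difference had SE 0.16 and adjusted p = 0.103 (limma) and was still not called. CD4+ TEM cells exceeded CD4+ memory cells by 5.41 (SE 1.04, adjusted p = 0.0238, limma). That call was lost when any array of the CD4+ TEM, CD4+ memory or CD8+ TEM groups was left out, with adjusted p up to 0.112, while the difference stayed between 5.33 and 5.49. Without either or both naïve CD8+ arrays it was 5.41 with SE 0.16 and adjusted p = 3.6e-05, and with only the CD4+ TEM and CD4+ memory arrays in the fit the adjusted p was 0.00596, so that the call was lost only in fits that hold both naïve CD8+ arrays.

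Between the subsets, *Ifng* was lower in CD4+ TEM than in CD8+ TEM cells by 0.98 on the log2 scale (SE 1.04, adjusted p = 0.692, limma), with no overlap of the arrays. Without either or both naïve CD8+ arrays, whose gap sets much of this SE, the same difference had SE 0.16 and adjusted p = 0.0201 and was called, as it was with only the 4 TEM arrays in the fit (adjusted p = 0.0275). The interaction contrast, CD4+ change less CD8+ change, was 0.16 (95% interval -3.24 to 3.55, adjusted p = 0.963, limma). It was -1.89 (adjusted p = 0.00834) without naïve CD8+ replicate 1 and 2.21 (adjusted p = 0.00538) without replicate 2, so these arrays give no direction for it.

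**Figure D2:**
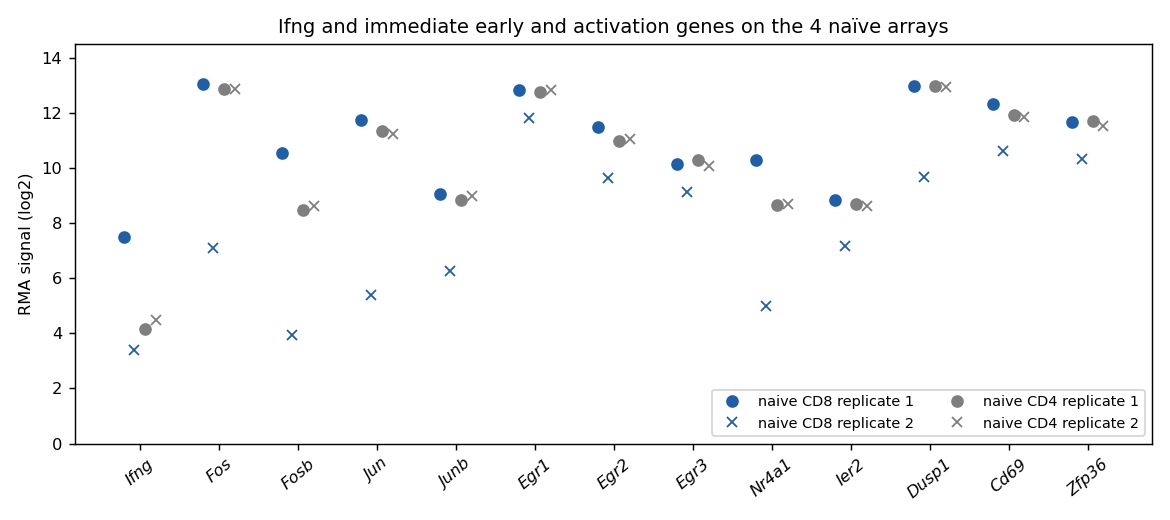
RMA signal (log2, vertical axis) of *Ifng* and of 12 immediate early and activation genes on the 2 naïve CD8+ and the 2 naïve CD4+ arrays, where circles are replicate 1 and crosses replicate 2. Every gene shown is higher on naïve CD8+ replicate 1 than on replicate 2, while both naïve CD4+ arrays hold high immediate early levels beside *Ifng* at 4.14 and 4.49.

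On naïve CD8+ replicate 1 the level of *Ifng* thus stood beside high immediate early genes. In naïve CD4+ cells those genes averaged 10.79 and 10.78, close to the 11.25 of that array, with *Ifng* at 4.14 and 4.49. NK cells also make interferon-γ, and the 3 NK cell genes measured averaged 2.86 on naïve CD8+ replicate 1 and 3.48 on replicate 2. *Cxcl10*, an interferon-induced chemokine, read 7.13 and 5.15 on these arrays. The part of an activated state or of NK cells in the naïve *Ifng* level was not tested.

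*Il21* (probe set 1450334_at) read 6.17 and 6.77 in CD4+ TEM cells, 2.60 and 2.85 in CD4+ memory cells, and 2.51 and 2.81 in naïve CD4+ cells. It read 6.44 and 7.14 in CD8+ TEM cells, against 2.38 and 2.60 in naïve CD8+ cells. The TEM arrays of both subsets overlapped each other and lay far above the 6 remaining arrays, which overlapped among themselves.

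In CD4+ TEM cells *Il21* was higher by 3.81 than in naïve CD4+ cells (SE 0.28, adjusted p = 3.57e-05, limma), and in CD8+ TEM cells by 4.30 than in naïve CD8+ cells (adjusted p = 1.22e-05, limma). CD4+ TEM cells exceeded CD4+ memory cells by 3.74 (adjusted p = 0.00033, limma), and memory cells exceeded naïve CD4+ cells by 0.07 (95% interval -0.58 to 0.71, adjusted p = 0.903). The difference between CD4+ and CD8+ TEM cells was -0.32 (95% interval -0.97 to 0.33, adjusted p = 0.609). The second *Il21* probe set (1447288_at) read 2.02 to 3.03 on all 10 arrays and was called in none of the comparisons, so the rise of *Il21* rests on 1 of its 2 probe sets. With the mean of both, the rise was 1.97 in CD4+ TEM cells and 2.33 in CD8+ TEM cells and was still called.

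*Il2* (probe set 1449990_at) was low throughout. It read 3.90 and 4.53 in CD4+ TEM cells, 3.19 and 3.70 in CD4+ memory cells, and 3.01 and 3.20 in naïve CD4+ cells. It read 4.48 and 5.44 in CD8+ TEM cells, against 3.04 and 3.07 in naïve CD8+ cells. The TEM arrays lay above the naïve arrays of their subset in each case, and CD4+ and CD8+ TEM cells overlapped.

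The rise of *Il2* in CD8+ TEM cells was 1.90 (SE 0.34, adjusted p = 0.00245, limma), and that in CD4+ TEM cells 1.11 (SE 0.34, adjusted p = 0.0442, limma). The CD4+ call was lost in 8 of 20 alternatives, among them without either or both naïve CD8+ arrays (adjusted p = 0.0669), and its adjusted p over all of them ranged from 0.0128 to 0.229. Without both naïve CD8+ arrays 2 of the 5 genes, *Ifng* and *Il21*, were therefore called higher in CD4+ TEM cells. In that fit 5135 of 18193 genes were called in either direction, against 4825 with all arrays. CD4+ TEM and CD4+ memory cells differed by 0.78 (95% interval -0.01 to 1.56, adjusted p = 0.248, limma). A second probe set that names *Il2* together with *Ntan1* was not used.

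*Il10* (probe set 1450330_at) read 2.66 and 4.27 in CD4+ TEM cells, 2.59 and 2.78 in CD4+ memory cells, and 2.46 and 2.57 in naïve CD4+ cells. It read 3.21 and 2.56 in CD8+ TEM cells, against 2.66 and 2.15 in naïve CD8+ cells. Only CD4+ TEM replicate 2 stood clear of the other 9 arrays. The difference between CD4+ TEM and naïve CD4+ cells was 0.96 (SE 0.47, adjusted p = 0.192, limma), and it was 1.76 (adjusted p = 0.00915) without CD4+ TEM replicate 1 and 0.15 without replicate 2, so that 1 array decides it.

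*Il17a* (probe set 1421672_at) read 3.27 and 3.05 in CD4+ TEM cells, 2.93 and 4.02 in CD4+ memory cells, and 3.30 and 3.46 in naïve CD4+ cells. It read 3.15 and 3.0 in CD8+ TEM cells, against 3.08 and 2.94 in naïve CD8+ cells. All values lay between 2.93 and 4.02, and the highest was 1 of the 2 memory arrays. The difference was -0.22 between CD4+ TEM and naïve CD4+ cells (95% interval -0.93 to 0.49, adjusted p = 0.688, limma) and 0.06 between CD8+ TEM and naïve CD8+ cells (adjusted p = 0.909). In CD4+ memory cells it was 0.09 above naïve CD4+ cells, 0.64 and called (adjusted p = 0.0449) without memory replicate 1, and -0.45 without memory replicate 2. Without memory replicate 1 it was also called lower in CD4+ TEM than in CD4+ memory cells, at -0.86 (adjusted p = 0.0387), against -0.31 with all arrays and 0.23 without memory replicate 2. The probe set shared by *Il22* and *Iltifb* (1427624_s_at) read 2.55 to 3.30 on all 10 arrays, and the signals of these genes cannot be told apart on it.

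**Figure D3:**
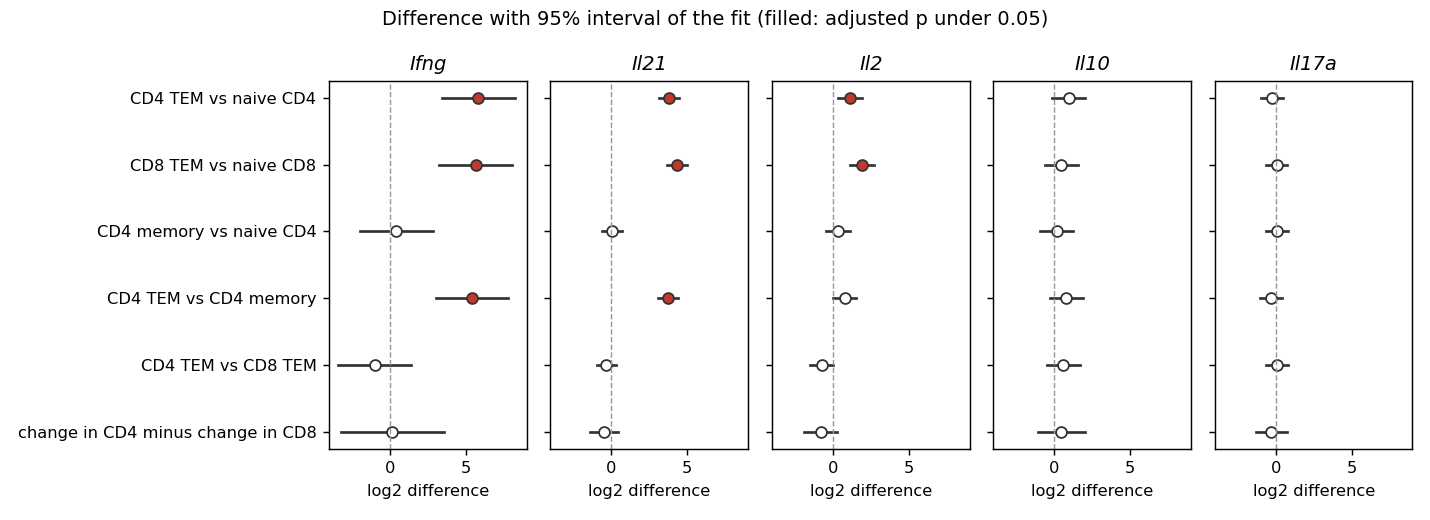
Differences in log2 signal (horizontal axis) for each of the 5 genes in 6 comparisons, each with its 95% interval from the limma fit. Filled points have an adjusted p under 0.05: *Ifng* and *Il21* in both TEM groups against naïve cells and in CD4+ TEM against CD4+ memory cells, and *Il2* in both TEM groups against naïve cells.

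In the order of group means, CD8+ TEM cells came first and CD4+ TEM cells second for *Ifng*, *Il21* and *Il2*. For *Il21* and *Il2* the arrays of these groups overlapped, and for *Ifng* they did not. The third place was taken by naïve CD8+ cells for *Ifng*, overlapping CD4+ memory cells, and by CD4+ memory cells for *Il21* and *Il2*, overlapping naïve CD4+ cells. For *Il10* and *Il17a* most neighbours in the order overlapped. Against CD4+ memory cells 2 of 5 genes were called higher in CD4+ TEM cells, where 3.89% of all genes were, and 0 were lower, where 1.64% of all genes were. Between CD4+ and CD8+ TEM cells 0 of 5 were called, where 5.72% of all genes were called in either direction, and for the difference between the changes 0 of 5, where 12.5% were. In both of these comparisons the count at an unadjusted p under 0.05 was also 0 (limma).

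Across the 10 arrays, which share their groups, the level of *Ifng* followed that of *Il21* (Pearson r = 0.93) and that of *Il2* (r = 0.84), and *Il2* followed *Il21*, its neighbour on the chromosome (r = 0.92). Among 4721 genes with a range of at least 2 log2 units, those most like *Ifng* were *Slc35d3* (r = 0.96), *Spry2* (r = 0.96) and *Cxcl10* (r = 0.96). *Cxcl10* averaged 8.95 in CD4+ TEM cells, 5.92 in CD4+ memory cells and 4.61 in naïve CD4+ cells. Those most like *Il21* were *Capsl*, *Il1r1*, the receptor of interleukin-1, and *Vegfc*, a lymphatic growth factor (r = 0.99 each). Those most like *Il2* were *Efcab3* (r = 0.98), *Tceal1* (r = 0.98) and *Adora3*, an adenosine receptor (r = 0.97).

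The receptors of the cytokines moved in both directions. Of 11 measured receptor genes, 4 rose and 1 fell in CD4+ TEM cells, 4 rose and 3 fell in CD8+ TEM cells, and 6 rose and 1 fell in CD4+ memory cells. Among all genes 16.4% were called higher and 10.1% lower in CD4+ TEM cells, and 20.9% and 17.2% in CD8+ TEM cells. In CD4+ memory cells these shares were 13.5% and 9.78%. *Il2ra*, the α chain of the high-affinity IL-2 receptor, read 11.71 and 11.65 in CD4+ TEM cells and 11.15 and 11.25 in CD4+ memory cells, against 6.17 and 7.04 in naïve CD4+ cells. It read 11.89 and 11.85 in CD8+ TEM cells, against 4.03 on both naïve CD8+ arrays. The rise was 5.07 in CD4+ TEM cells, 4.59 in CD4+ memory cells and 7.84 in CD8+ TEM cells, and the change in CD4+ minus that in CD8+ cells was -2.77 (adjusted p = 0.00313, limma).

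*Il2rb*, the β chain of the same receptor, rose by 4.91 in CD4+ TEM, 5.40 in CD4+ memory and 2.15 in CD8+ TEM cells. The IL-2 receptor genes were thus high in memory cells that held low *Il2*, in a culture to which IL-2 had been added. *Il10ra*, which binds IL-10, rose by 2.49 in CD4+ TEM cells, 2.92 in CD4+ memory cells and 1.51 in CD8+ TEM cells. *Il17ra*, the shared receptor chain for IL-17A and IL-17F, fell by 1.73 in CD4+ TEM, by 2.43 in CD8+ TEM and by 0.65 in CD4+ memory cells. *Ifngr1*, the ligand-binding chain of the interferon-γ receptor, rose by 1.07 in CD4+ TEM and 1.87 in CD4+ memory cells, and was lower by 0.80 on the log2 scale in CD4+ TEM than in memory cells (adjusted p = 0.0164, limma).

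Interferon-γ response genes, many of which type I interferons also induce, were mostly higher in all 3 cultured groups, including the memory cells with low *Ifng*. Of 18 such genes measured, 16 rose and 0 fell in CD4+ TEM cells, 11 rose and 2 fell in CD8+ TEM cells, and 14 rose and 0 fell in CD4+ memory cells. Their median difference was 1.7, 1.22 and 1.23 in these groups, where 16.4%, 20.9% and 13.5% of all genes were called higher. The shares called lower were 10.1%, 17.2% and 9.78%, and the 2 that fell in CD8+ TEM cells do not exceed that share. Between CD4+ TEM and CD4+ memory cells 2 of the 18 were higher, *Cxcl10* (3.03, adjusted p = 0.0155, limma) and *Cxcl11* (1.15, adjusted p = 0.019), ligands of the receptor CXCR3, and the median difference of the list was -0.15, beside -0.03 over all genes. That count ranged from 0 to 3 over the alternatives that measured all 18 genes. With all arrays 3.89% of all genes were called higher in this comparison.

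*Irf8*, an interferon-induced transcription factor that B cells and myeloid cells also express, rose by 5.29 in CD4+ TEM, 4.42 in CD4+ memory and 4.38 in CD8+ TEM cells. *Iigp1*, an immunity-related GTPase, rose by 2.33, 2.85 and 2.73 in the same groups. *Cxcl9*, also a ligand of CXCR3, read 5.44 and 5.80 in CD4+ TEM cells and 5.11 and 5.81 in CD4+ memory cells, against 2.99 and 3.33 in naïve CD4+ cells. It read 8.92 and 9.29 in CD8+ TEM cells, against 2.81 and 3.36 in naïve CD8+ cells. *Ido1*, an enzyme of tryptophan breakdown, read 4.99 and 6.06 in CD4+ TEM cells, against 3.75 and 3.6 in naïve CD4+ cells, and 9.62 and 9.71 in CD8+ TEM cells, against 3.70 and 3.47 in naïve CD8+ cells. The rise in CD4+ cells was smaller than that in CD8+ cells by 4.24 for *Ido1*, 3.56 for *Cxcl9* and 3.10 for *Cxcl11*, each called. Over all 18 response genes, 4 had a called difference in that direction and 4 in the other, where 4.49% and 8.03% of all genes did. The median CD4+ change less CD8+ change of the list was 0.29. For *Ifng* itself the direction of this difference depended on which naïve CD8+ array was kept.

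**Figure D4:**
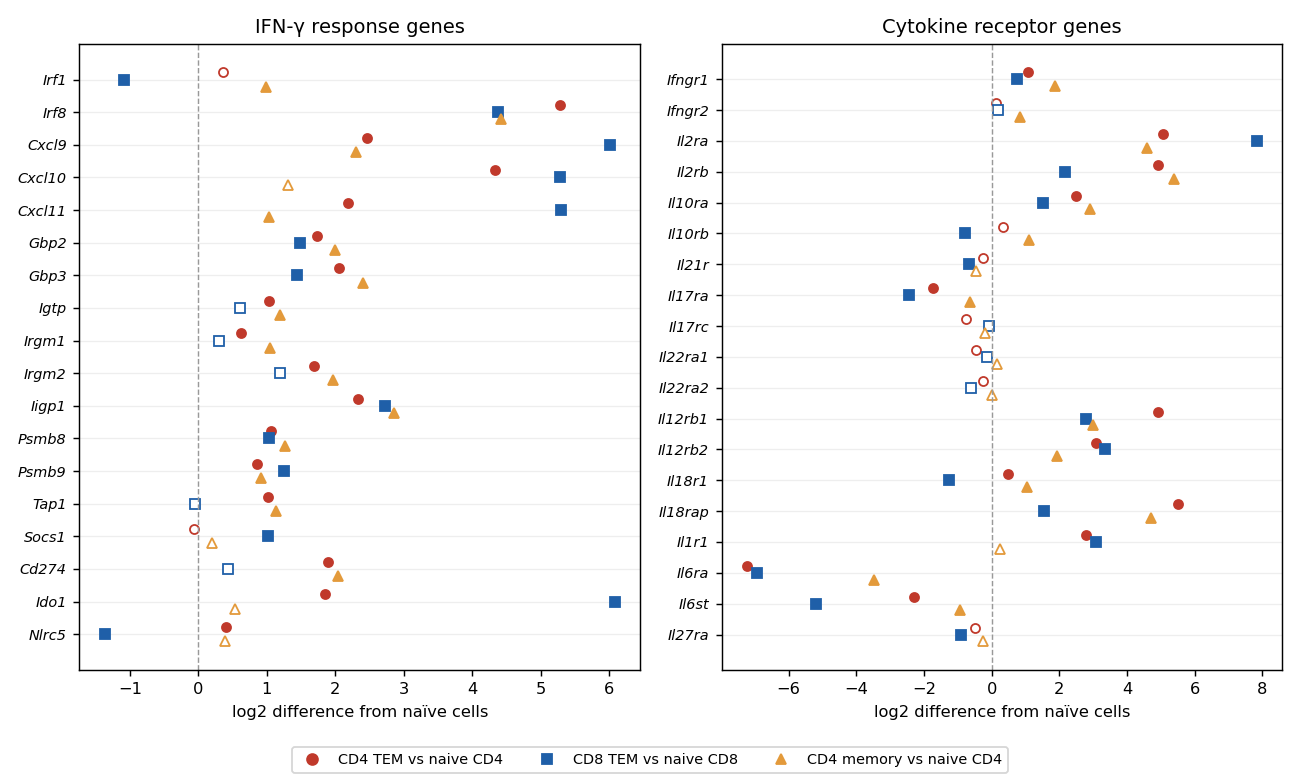
Differences in log2 signal from naïve cells of the same subset (horizontal axis) for 18 interferon-γ response genes (left) and 19 cytokine receptor genes (right) in CD4+ TEM (circles), CD8+ TEM (squares) and CD4+ memory cells (triangles), filled where called. Most response genes lie to the right of 0 in all 3 groups, and *Ido1*, *Cxcl9* and *Cxcl11* reach 5.3 to 6.08 in CD8+ TEM cells.

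Of the receptors through which other cytokines act on these genes, 8 were measured. In CD4+ TEM cells 5 rose and 2 fell, in CD8+ TEM cells 4 rose and 4 fell, and in CD4+ memory cells 4 rose and 2 fell. Of all genes 16.4%, 20.9% and 13.5% were called higher in these comparisons, and 10.1%, 17.2% and 9.78% lower. Among the receptors for the *Ifng*-inducing cytokines IL-12 and IL-18, *Il12rb1* rose by 4.91 in CD4+ TEM, 3.01 in memory and 2.80 in CD8+ TEM cells. In the same order *Il12rb2* rose by 3.09, 1.95 and 3.35, and *Il18rap* by 5.51, 4.70 and 1.56. *Il18r1*, the chain that binds IL-18, read 9.35 and 9.11 in CD8+ TEM cells, against 10.39 and 10.58 in naïve CD8+ cells, and fell by 1.25 there (adjusted p = 0.000245, limma), while it rose by 0.50 in CD4+ TEM and 1.05 in memory cells. It was named after its values were seen. *Il6ra*, the receptor for IL-6, read 3.33 and 3.24 in CD4+ TEM cells and 7.23 and 6.87 in CD4+ memory cells, against 10.54 and 10.48 in naïve CD4+ cells. It read 2.86 and 2.81 in CD8+ TEM cells, against 9.60 and 9.95 in naïve CD8+ cells, so that it fell by 7.22 in CD4+ TEM and fell by 6.94 in CD8+ TEM cells. *Il1r1* rose by 2.79 in CD4+ TEM and 3.07 in CD8+ TEM cells and differed by 0.25 in CD4+ memory cells (adjusted p = 0.654, limma), a pattern over the groups much like that of *Il21*.

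Of 22 measured regulators of the cytokine genes, 12 rose and 3 fell in CD4+ TEM cells, 9 rose and 7 fell in CD8+ TEM cells, and 9 rose and 5 fell in CD4+ memory cells. The shares of all genes called higher were 16.4%, 20.9% and 13.5% in these groups, and those called lower 10.1%, 17.2% and 9.78%. *Tbx21*, which encodes T-bet, the Th1 factor that drives *Ifng*, read 7.47 and 7.56 in CD4+ TEM cells and 7.29 and 7.61 in CD4+ memory cells, against 4.14 and 2.66 in naïve CD4+ cells. It read 8.65 and 8.59 in CD8+ TEM cells, against 6.13 and 6.34 in naïve CD8+ cells. CD4+ TEM and memory cells differed by 0.06 in *Tbx21* (95% interval -0.86 to 0.99) and by 5.41 in *Ifng*. *Eomes*, a T-box factor related to T-bet, was lower by 1.99 on the log2 scale in CD4+ TEM than in CD4+ memory cells.

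*Maf*, which binds and activates *Il21* and *Il10*, differed between the day 25 CD4+ groups. It read 8.69 and 8.86 in CD4+ TEM cells and 3.24 and 3.74 in CD4+ memory cells, against 8.58 and 8.75 in naïve CD4+ cells, a difference of 5.28 between TEM and memory cells (adjusted p = 0.000297, limma), or 2.63 with the mean of its probe sets. In CD8+ TEM cells, whose *Il21* levels overlapped those of CD4+ TEM cells, *Maf* read 5.63 and 6.31, against 6.19 and 5.0 in naïve CD8+ cells, a difference of 0.38 that was not called (adjusted p = 0.516), and CD4+ TEM cells exceeded CD8+ TEM cells by 2.80 (adjusted p = 0.0073). *Ahr*, the aryl hydrocarbon receptor known for driving *Il22*, read 9.10 and 9.48 in CD4+ TEM cells, 5.54 and 5.31 in CD4+ memory cells and 5.73 and 5.54 in naïve CD4+ cells. In CD8+ TEM cells it read 6.74 and 6.12, against 6.70 and 5.77 in naïve CD8+ cells. *Zeb2* and *Ikzf2* were also higher in CD4+ TEM than in memory cells, by 2.47 and 2.33, and for *Zeb2* that was 0.51 and not called (adjusted p = 0.1) with the mean of its probe sets. *Ikzf2* encodes Helios.

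Regulators that rose in several groups included *Irf4*, *Nfil3*, *Rora* and *Prdm1*, whose protein Blimp-1 represses *Il2*. *Prdm1* rose by 3.52 in CD8+ TEM cells, and *Nfil3* by 3.93 in CD4+ TEM cells. *Irf4* rose by 3.70 in CD8+ TEM cells, by 5.05 without naïve CD8+ replicate 1 and by 2.34 without replicate 2, where the naïve arrays read 10.18 and 7.47. *Rora*, a ROR factor that takes part in Th17 differentiation, rose by 3.90 in CD4+ TEM and 3.26 in CD8+ TEM cells, beside an *Il17a* level that was not called. *Bcl6*, the factor of follicular helper cells, fell by 4.60 in CD8+ TEM cells and by 2.36 in CD4+ TEM cells, in the same cells in which *Il21* rose.

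Of 4 measured genes of the Th17 programme, 2 rose in CD4+ TEM cells, 1 in CD8+ TEM cells and 1 in CD4+ memory cells, where 16.4%, 20.9% and 13.5% of all genes rose, and counts of so few genes are not set apart from these shares. They were *Il1r1* in both TEM groups and *Cxcr6*, a chemokine receptor that other effector T cells also carry, in the CD4+ groups. *Cxcr6* rose by 6.69 in CD4+ TEM cells and by 1.71 in memory cells, and the memory call was lost in 5 of 21 alternatives. Its level in CD8+ TEM cells, 10.51 and 10.42, was close to that in CD4+ TEM cells, 10.58 and 10.53. Naïve CD8+ cells already read 9.36 and 10.55, and the CD8+ change of 0.51 was not called. The Th17 chemokine receptor *Ccr6* read 4.34 and 5.14 in CD4+ TEM cells, against 4.80 and 4.88 in naïve CD4+ cells, and the chemokine *Ccl20* read 3.25 to 3.87 on all arrays. Both were named after their values were seen.

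**Figure D5:**
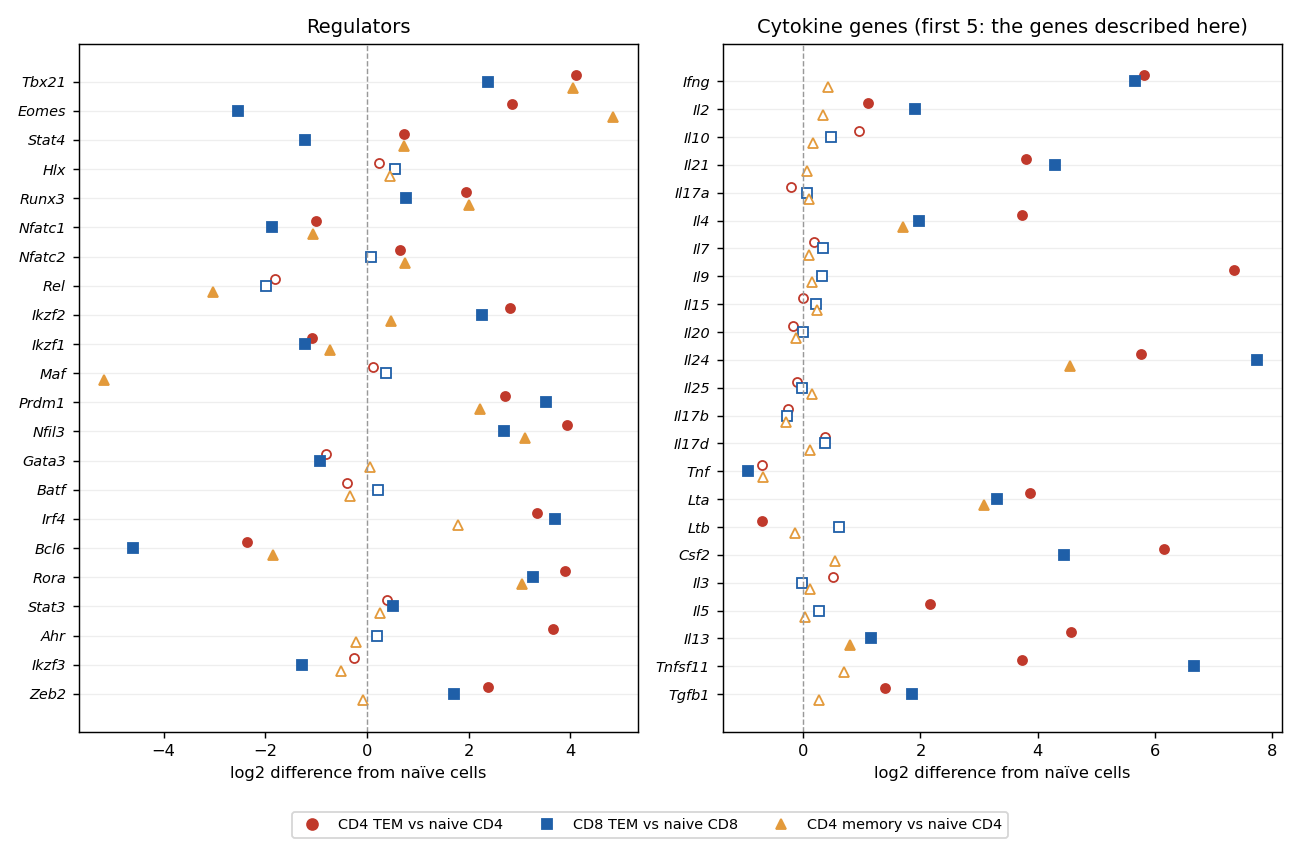
Differences in log2 signal from naïve cells of the same subset (horizontal axis) for 22 regulators (left) and for the 5 measured cytokine genes with 18 other cytokine genes (right), drawn with circles for CD4+ TEM, squares for CD8+ TEM and triangles for CD4+ memory cells, filled where called. *Tbx21* is near 4 in both CD4+ groups while *Ifng* is at 5.83 in CD4+ TEM and 0.42 in CD4+ memory cells, and *Il9* is at 7.35 in CD4+ TEM cells, against 0.32 in CD8+ TEM and 0.15 in CD4+ memory cells.

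Among other genes of the same cytokine families, 3 of 9 rose in CD4+ TEM cells, 2 in CD8+ TEM cells and 2 in CD4+ memory cells, and none fell in these groups. With 16.4%, 20.9% and 13.5% of all genes called higher, the count in CD8+ TEM cells is near the share of all genes. *Il24*, of the IL-10 family and close to *Il10* on chromosome 1, read 10.48 and 10.26 in CD4+ TEM cells and 9.03 and 9.30 in CD4+ memory cells, against 4.90 and 4.31 in naïve CD4+ cells. It read 11.43 and 11.42 in CD8+ TEM cells, against 3.79 and 3.55 in naïve CD8+ cells. *Il20*, which lies with *Il19* between *Il24* and *Il10*, read 2.56 to 2.95 on all 10 arrays and was named after its values were seen. *Il9*, a common γ chain cytokine like *Il2* and *Il21*, read 10.75 and 10.81 in CD4+ TEM cells, and 3.16 to 3.99 on the other 8 arrays. *Il4*, the Th2 cytokine of the same family, rose by 3.74 in CD4+ TEM, 1.98 in CD8+ TEM and 1.71 in CD4+ memory cells. The memory arrays read 5.35 and 3.94, and the rise there was 1.0 without replicate 1, where it was not called, and 2.41 without replicate 2. That call was lost in 5 of 21 alternatives.

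Of 9 other effector cytokines, 6 rose and 1 fell in CD4+ TEM cells, 5 rose and 1 fell in CD8+ TEM cells, and 2 rose in CD4+ memory cells. All genes were called higher at shares of 16.4%, 20.9% and 13.5% in these groups, and lower at 10.1%, 17.2% and 9.78%. *Csf2*, which encodes GM-CSF, rose by 6.17 in CD4+ TEM and 4.46 in CD8+ TEM cells, and exceeded CD4+ memory cells by 5.63 in CD4+ TEM cells. *Lta*, lymphotoxin α, rose in all 3 cultured groups, by 3.87 in CD4+ TEM, 3.08 in CD4+ memory and 3.31 in CD8+ TEM cells. *Il13*, a Th2 cytokine, rose by 4.58 in CD4+ TEM cells and by 1.16 in CD8+ TEM cells. *Tnfsf11*, the ligand RANKL, rose by 3.74 and 6.68 in these groups. Against CD4+ memory cells 5 of these 9 genes were higher in CD4+ TEM cells, beside *Ifng* and *Il21* of the genes described first. The share of all genes called higher there was 3.89%.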

How the data were processed

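T cell RNA of 5 groups, 2 samples each, was hybridised to Affymetrix whole-genome mouse arrays with a 3′ labelling kit. The deposited values are log2 signals that the authors normalised by RMA in BRB-ArrayTools (version not given in the sources used here), from 1.68 to 14.86 and not centred. No scanner files were used, and the precision is limited by 2 arrays a group. Groups were taken from titles and source names. A description as germinal centre B cells, a *Foxo1* status and a design text on an edited lymphoma line were not used, since they describe other cells.

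Of 45037 probe sets for transcripts, 34945 have 1 gene symbol in the platform annotation, 932 several and 9160 none here. Symbols were updated through a RefSeq gene table (GRCm38.p6) for 34741 probe sets, and 204 kept their own. Of several probe sets of a gene, that of highest mean was kept, which gave 18193 genes. All 10 arrays entered a group-means model in limma 3.58.1 (R 4.3.3; 5 residual degrees of freedom, 2.96 prior) with Benjamini-Hochberg adjustment over all genes. The test was also tried on simulated data. Differences are signed as the group named first minus its reference.

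The genes and the gene lists were chosen with earlier results of these data known, so counts over a list are descriptions. Of each list, up to 4 called genes with the largest change per comparison were named, plus, for each called cytokine, the 3 genes with the highest Pearson r. Alternatives covered the probe set rule, filters on dim and invariant genes, quantile normalisation, the variance model, array weights, the arrays fitted, a replicate block and each array left out; leaving out both naïve CD8+ arrays was added after seeing the data. The replicate numbers do not pair the samples: deviations of same-numbered arrays correlated between -0.04 and 0.03 over 10 pairs of groups. Promoter windows came from a RefSeq table, which held none used here for *Il10*. Figures used matplotlib 3.10.9.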

Additional observations from a re-analysis of the deposited data

Results flagged for a closer look

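The interaction contrast in limma was the change in CD4+ cells (CD4+ TEM against naïve CD4+) minus the change in CD8+ cells (CD8+ TEM against naïve CD8+). It was called for 0 of the 5 cytokine genes, where 12.5% of all genes were called. Of 45 genes it was called for 18. The 45 were these 5 and the cytokine, receptor, regulator and response genes named for a large called change. Many of those changes enter this contrast, so the share of the 45 is not set beside that of all genes. *Il18r1* and other genes named after their values were seen are not among the 45. Of the 18, 12 had the more positive change in CD4+ cells and 6 in CD8+ cells. Among cytokines the difference was 7.04 for *Il9* (changes of 7.35 in CD4+ and 0.32 in CD8+ cells), 3.41 for *Il13* (4.58 and 1.16), 1.91 for *Il5* (2.17 and 0.26), -1.98 for *Il24* (5.77 and 7.75) and -2.94 for *Tnfsf11* (3.74 and 6.68). Among receptors it was 6.18 for *Cxcr6*, 3.95 for *Il18rap*, 2.76 for *Il2rb*, 2.11 for *Il12rb1*, 1.15 for *Il10rb* and -2.77 for *Il2ra*. For some of these genes the TEM levels lay close together and the naïve levels did not. *Cxcr6* averaged 10.56 in CD4+ TEM and 10.46 in CD8+ TEM cells, against 3.87 in naïve CD4+ and 9.96 in naïve CD8+ cells. In the same order *Il2rb* averaged 11.65, 12.01, 6.74 and 9.85, and *Tnfsf11* 11.32, 11.03, 7.58 and 4.36. *Il6st*, the shared signal chain of the IL-6 family, fell in both subsets, by 2.29 (CD4+) and 5.19 (CD8+), which leaves 2.9 between them. Among regulators the difference was 5.38 for *Eomes*, which rose by 2.85 in CD4+ and fell by 2.53 in CD8+ cells, 3.45 for *Ahr* and 2.23 for *Bcl6*. Among interferon-γ response genes it was -4.24 for *Ido1*, -3.56 for *Cxcl9* and -3.10 for *Cxcl11*. Over all response genes measured, 4 were called with the more positive change in CD4+ cells and 4 in CD8+ cells. Of all genes 8.03% and 4.49% were, and the median of the response list was 0.29. Each difference in this contrast includes the naïve CD8+ arrays, which stand apart from each other for *Ifng* and the immediate early genes. The called differences among the 45 genes were not followed over the alternatives, so their dependence on a single array is not known. No group had enough arrays to look for a single outlying one by Dixon's test.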

How the results depend on the processing

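The rises of *Ifng* and *Il21* in both TEM groups against naïve cells and of *Il2* in CD8+ TEM cells kept their direction and their call under every alternative run. For *Il2* in CD4+ TEM cells the call was lost in 8 of 20 alternatives, without a change of direction: with every probe set tested (adjusted p = 0.0513), with array weights (0.0509), without either array of naïve CD4+ cells, without CD4+ TEM replicate 2 and without either or both naïve CD8+ arrays. *Ifng* in CD4+ TEM against CD4+ memory cells lost its call without any array of the 3 cultured groups. Other genes named from the lists were followed only in the comparisons that named them, which do not include CD4+ against CD8+ TEM cells or the interaction contrast. In the comparisons followed none changed direction, and 85 calls were lost over the alternatives. They include *Nfil3* in CD4+ TEM cells (adjusted p up to 0.0652), *Il4* in CD4+ memory (0.186) and CD8+ TEM cells (0.0692), *Il10ra* in CD8+ TEM cells (0.0813), and, in CD4+ TEM against CD4+ memory cells, *Cxcl10* (0.0788), *Cxcl11* (0.203) and *Ifngr1* (0.152). When a gene was taken as the average over its probe sets, dimmer ones included, *Il10ra* rose by 1.01 in CD4+ TEM and 1.44 in CD4+ memory cells, *Rora* by 1.61 in CD4+ TEM and 1.81 in CD8+ TEM cells, *Il1r1* by 1.44 and 1.56 and *Tnfsf11* by 4.02 in CD8+ TEM cells, and *Il6ra* fell by 4.10 and 4.14 in the TEM groups. The filter that left out genes with a highest group mean under 6 removed *Il2*, *Il10* and *Il17a*, and the variation filter removed *Il17a*, so these genes have no value there.

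Leaving out 1 array at a time turned the direction of differences near 0 and of those that rest on 1 array. Such values ranged from -1.89 to 2.21 for the change of *Ifng* in CD4+ minus CD8+ cells, from -0.33 to 1.28 for that of *Il10*, from -0.021 to 1.59 for *Il10* in CD4+ TEM against CD4+ memory cells and from -0.22 to 1.39 for *Il10* in CD4+ against CD8+ TEM cells. *Il17a* ranged from -0.86 to 0.23 in CD4+ TEM against CD4+ memory cells, from -0.45 to 0.64 in CD4+ memory against naïve CD4+ cells, from -0.022 to 0.196 in CD4+ against CD8+ TEM cells and from -0.011 to 0.14 in CD8+ TEM against naïve CD8+ cells. *Il21* ranged from -0.67 to 0.028 in CD4+ against CD8+ TEM cells and from -0.083 to 0.21 in CD4+ memory against naïve CD4+ cells.

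Counts of called genes were 4825 for CD4+ TEM and 6926 for CD8+ TEM against naïve cells, 4227 for CD4+ memory against naïve CD4+ cells, 1005 for CD4+ TEM against CD4+ memory cells, 1041 for CD4+ against CD8+ TEM cells and 2278 for the difference between the changes. Without reducing probe sets to genes, where more features are tested, they were 10571, 14381, 8885, 1574, 2443 and 3545 probe sets. With 1 array left out they ranged from 3185 to 5346, from 5230 to 7389, from 2575 to 4497, from 490 to 1140, from 219 to 1436 and from 982 to 2774. With only the arrays compared, CD4+ TEM against CD4+ memory cells gave 223 genes, and array weights gave 2477 for CD4+ against CD8+ TEM cells. A replicate block, although the numbers do not pair the samples, gave 4656, 6814, 4047, 908, 885 and 2055 and changed no call of a cytokine gene. The cause of these shifts was not tested. Most *Il2*, *Il10* and *Il17a* values lie under the array median, where the arrays resolve little.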
